A study of Mus musculus with 2 samples.

Results

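The 10 genes described here are the mouse homologues of human primary microcephaly genes whose proteins work at the centrosome or on the mitotic spindle, namely Aspm, Wdr62, Nde1, Cdk5rap2, Mcph1, Stil, Cenpj, Cep152, Cep135 and Cep63. They were chosen by symbol among the 32285 genes of the deposited count tables, by a rule that uses no measured value, although the set was proposed with earlier results of these data known. The tables hold single-cell transcriptomes of the dorsal telencephalon at embryonic day 14.5 (E14.5), from 2 libraries that carry the genotype label WT. Both belong to the same group, control embryos of the EomesDot line, which the series title describes as Eomes-Cre mice, and the tissue label reads brain hemispheres. The libraries are called WT replicate 2 and WT replicate 4 after their titles, and no untreated-versus-treated or genotype contrast exists among them. The comparisons are therefore between cell classes and between cell cycle states inside both libraries. No label says whether the libraries come from separate embryos, so p-values measure the spread between these 2 samples, which may be technical.

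The centrosome is the main microtubule organizer of animal cells and is built around a pair of centrioles that duplicate in each cell cycle. In the embryonic cortex, radial glial cells (RGCs) divide at the ventricular surface and give rise to neurons directly or through intermediate progenitor cells (IPCs), and the orientation and duration of these divisions depend on the spindle poles. Loss of function of these genes in humans leads to a small cerebral cortex. Aspm and Wdr62 proteins sit at the spindle poles, Nde1 ties dynein to centrosomes and kinetochores, Cdk5rap2 recruits the gamma-tubulin complexes that nucleate microtubules, and Mcph1 restrains chromosome condensation and contributes to DNA damage signalling. The other 5 act in centriole assembly: Cep63 and Cep152 recruit the duplication kinase Plk4, Stil is a Plk4 substrate needed for the cartwheel, Cenpj (CPAP) elongates the centriole and Cep135 links the cartwheel to its microtubules.

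The libraries held 1712 and 2589 barcodes with 40267872 and 49422007 unique molecular identifiers (UMIs), of which 1197 and 1956 cells were retained, and 3 barcode sequences occurred in both libraries, 1 of them among retained cells. The 26 clusters of these 3153 cells were named from marker genes, with the 10 genes kept out of the clustering. RGC-like cells numbered 546 in 3 clusters, each with 10 of 10 radial glia markers raised. One of these clusters, of 185 cells, had the hemoglobin genes Hbb-bs and Hbb-bt beside 1 marker, Fabp7, among its 10 leading genes, and 4 of 9 erythroid markers raised. IPC-like cells numbered 409 in 3 clusters with 6 or 7 of 7 markers raised. Of the IPC-like clusters, one of 222 cells also had 6 of 10 radial glia markers raised, one of 88 cells had 8 of 11 excitatory neuron markers raised and one of 99 cells, led by Top2a, had 6 of 11 of the latter. The 11 excitatory neuron markers summed to 2020 UMIs per 1000000 in IPC-like cells, 588 in RGC-like cells and 6755 in excitatory neuron-like cells, and the 7 IPC markers to 2237, 166 and 265. The 10 radial glia markers summed to 1252 in IPC-like, 5297 in RGC-like and 283 in the excitatory class. There were 1483 excitatory neuron-like, 330 GABAergic neuron-like, 53 meningeal fibroblast-like and 40 Cajal-Retzius-like cells, and 4 further classes of 12 to 27 cells. One excitatory neuron-like cluster, of 53 cells with a median of 3732 UMIs, had 4 hemoglobin genes (Hba-a1, Hba-a2, Hbb-bs and Hbb-bt) and the neuron marker Neurod6 among its 10 leading genes. Hemoglobin genes were not used against a name, and leaving this neuron cluster out changed no call on the 10 genes. Another 212 cells stayed without a name, among them a cluster of 135 cells with all 10 radial glia markers raised but led by Ttr and Rspo3. The 10 genes contributed 28481 UMIs to the retained cells, which sets the precision of each value below.

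All 10 genes lie on autosomes in GRCm38.p6, the patched form of the mm10 build. Aspm spans chr1:139454188-139494088, Wdr62 chr7:30240138-30281908, Nde1 chr16:14163275-14192928, Cdk5rap2 chr4:70216855-70410435 and Mcph1 chr8:18595116-18808089. Stil spans chr4:115000108-115043203, Cenpj chr14:56526761-56575489, Cep152 chr2:125549864-125625174, Cep135 chr5:76588653-76646466 and Cep63 chr9:102586578-102626564. The RefSeq span of Mcph1 overlaps that of Angpt2, an angiopoietin gene, and the spans of Wdr62 and Cep63 overlap those of Thap8 and Anapc13. How reads in these shared stretches were assigned is not given in the sources used here.

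Promoter windows of the RefSeq set, from 250 bases before to 50 bases after each annotated start, matched 9 of the 10 genes, not Mcph1. Both strands were searched for the cell cycle homology region (CHR, TTTGAA or TTTAAA), an E2F site (TTTCCCGC, TTTGGCGC, TTTCGCGC or TTTGCCGC) and the CCAAT box (CCAAT), motifs known from the promoters of cell cycle genes. TTTAAA is its own reverse complement and was counted once. The windows of Aspm, Nde1, Stil and Wdr62 are shown because these genes varied most between progenitors and neurons, and that of Cenpj because its level followed another order. Each line runs 5′ to 3′ on the gene's strand from base -120 to base 20, where base 1 is the annotated start, and the bases of a motif on either strand are in capitals (ATTGG is CCAAT read on the other strand). The starts of Aspm, Stil, Wdr62 and Cenpj lie inside the full spans given above, and that of Nde1 is the first base of its span.
Aspm promoter, chr1:139454653-139454792, plus strand: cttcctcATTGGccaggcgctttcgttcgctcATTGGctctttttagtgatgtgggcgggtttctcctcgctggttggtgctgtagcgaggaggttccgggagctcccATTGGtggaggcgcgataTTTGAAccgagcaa
Nde1 promoter, chr16:14163155-14163294, plus strand: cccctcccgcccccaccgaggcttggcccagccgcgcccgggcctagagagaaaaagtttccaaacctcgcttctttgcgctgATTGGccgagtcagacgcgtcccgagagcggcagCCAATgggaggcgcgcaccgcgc
Stil promoter, chr4:114999998-115000137, plus strand: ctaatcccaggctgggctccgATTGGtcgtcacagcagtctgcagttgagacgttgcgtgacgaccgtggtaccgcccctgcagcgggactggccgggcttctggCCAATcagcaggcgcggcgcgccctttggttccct
Wdr62 promoter, chr7:30280402-30280541, minus strand: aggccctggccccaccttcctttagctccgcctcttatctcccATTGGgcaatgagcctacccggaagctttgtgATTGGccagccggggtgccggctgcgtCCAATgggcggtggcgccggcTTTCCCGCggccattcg
Cenpj promoter, chr14:56571827-56571966, minus strand: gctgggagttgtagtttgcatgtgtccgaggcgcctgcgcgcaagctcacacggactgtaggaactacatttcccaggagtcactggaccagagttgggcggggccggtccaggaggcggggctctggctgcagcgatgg
The lines show the CCAAT boxes near the start in Aspm, Nde1, Stil and Wdr62 and no motif in Cenpj. CCAAT boxes were found in the windows of 6 genes, CHR words in those of 3 genes and E2F words in those of 2 genes. Among all 32851 windows of the same length, 37.4% held a CCAAT box, 27.6% a CHR word and 2.26% an E2F word. Aspm had 3 CCAAT boxes and 3 CHR words, 1 of the latter at base 7 and the others upstream of the printed bases. Stil had 3 CCAAT boxes and 2 CHR words, of which both CHR words and 1 box lie upstream of the printed bases. Nde1 had 2 CCAAT boxes and the first of the 2 Wdr62 windows, the one printed, had 3 CCAAT boxes and the E2F word TTTCCCGC. Cep152 and Cep135 had 3 and 1 CCAAT boxes. The other E2F word was in the Cep63 window, the third CHR gene was Cdk5rap2, and none of the 3 motifs was found in the Cenpj window.

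Levels are given as UMIs per 1000000 UMIs (CPM) of all cells of a class in 1 library, and compare a gene with itself across classes, not with other genes. In 9 of the 10 genes, both libraries were higher in RGC-like cells than both libraries of each other class in the fit, which took the 6 classes that held 10 or more cells per library. Cenpj was the exception, with its highest level in IPC-like cells when all cells of a class were summed. For Mcph1 the gap was small, with 83.1 CPM in the lower RGC-like library and 83.0 in the higher GABAergic neuron-like one. Excitatory neuron-like cells had the lowest mean for 6 genes, Aspm, Wdr62, Nde1, Stil, Cep152 and Cep135. Against excitatory neuron-like cells, 8 of 10 genes were called higher in RGC-like cells, where 23.9% of all 15227 genes tested were called higher and 27.5% lower, and none of the 10 was called lower. The median log2 fold change was 2.02 over the 10 genes and -0.07 over all genes.

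**Figure D1:**
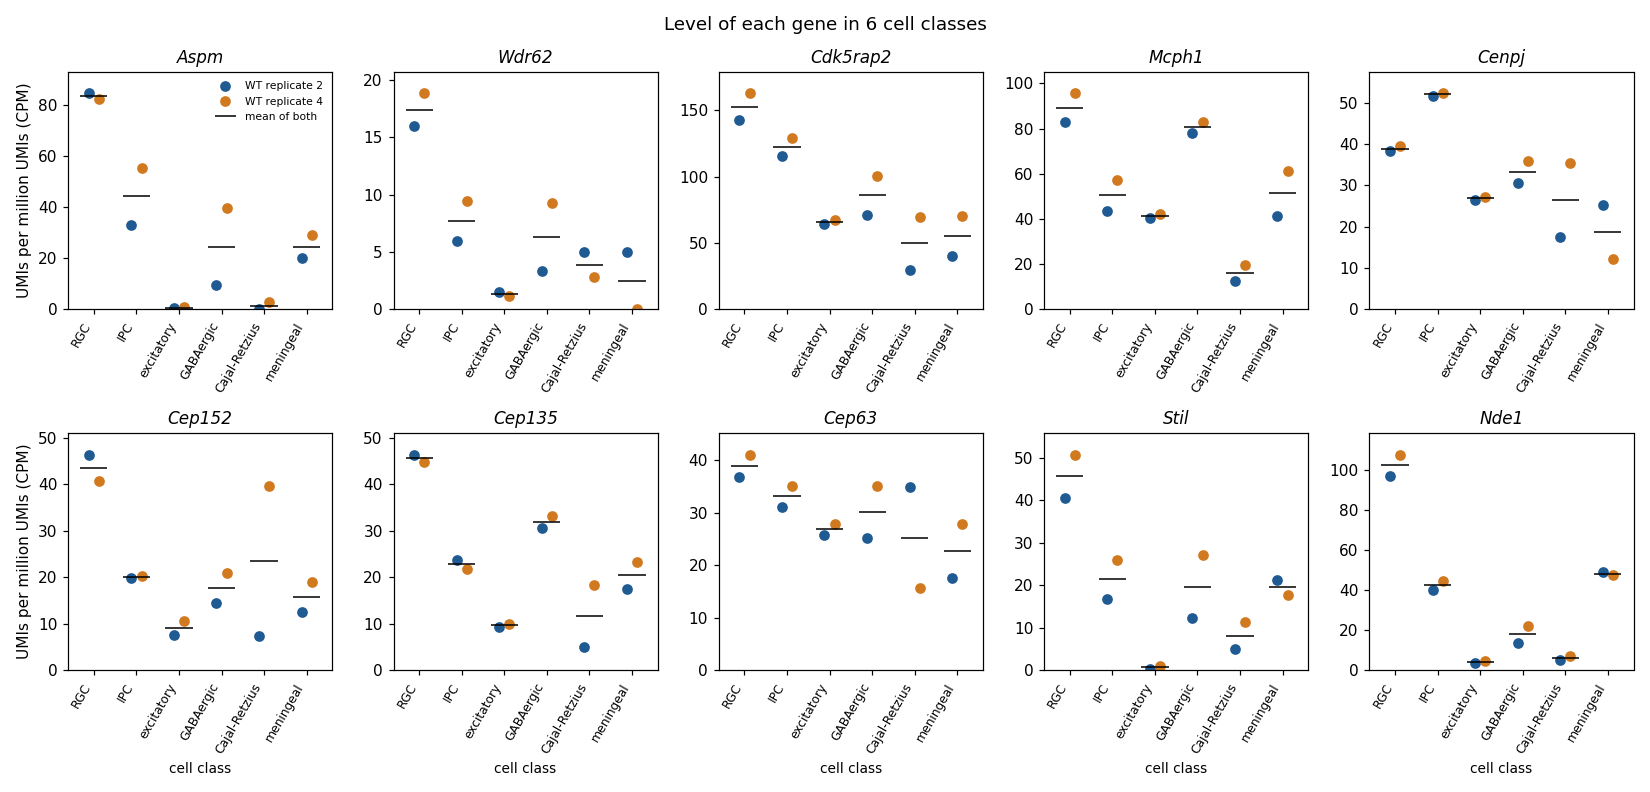
Level of each of the 10 genes in 6 cell classes, in UMIs per 1000000 UMIs on a linear axis from 0 whose scale differs between panels. Points are the 2 WT libraries and black bars their mean. RGC-like cells stand highest in every panel but that of Cenpj, where IPC-like cells do, and the GABAergic neuron-like points of Aspm lie apart at 9.47 and 39.5.

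The spindle pole gene Aspm had 84.4 and 82.3 CPM in the RGC-like cells of replicates 2 and 4, 33.1 and 55.2 in IPC-like cells and 0.66 and 0.80 in excitatory neuron-like cells. The classes did not overlap, and the values in neurons rested on 13 and 18 UMIs. The log2 fold change of RGC-like over excitatory neuron-like cells was 6.57 ± 0.54 (SE, edgeR quasi-likelihood test, adjusted p = 4.6e-06), and that of IPC-like cells 5.74 ± 0.54 (edgeR adjusted p = 3.9e-05). Its partner at the pole, Wdr62, was sparse: RGC-like cells had 16.0 and 18.8 CPM, IPC-like cells 5.95 and 9.45 and excitatory neuron-like cells 1.53 and 1.20. Wdr62 was 3.44 ± 0.44 higher on the log2 scale in RGC-like than in excitatory neuron-like cells (edgeR adjusted p = 9.82e-05). The dynein adaptor Nde1 had 97.5 and 108 CPM in RGC-like cells against 40.4 and 44.6 in IPC-like cells, and had 3.47 and 4.50 in excitatory neuron-like cells. It was higher by 4.46 ± 0.20 in RGC-like cells (edgeR adjusted p = 4.15e-07) and by 3.27 ± 0.20 in IPC-like cells (edgeR adjusted p = 7.44e-06), both on the log2 scale.

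Of the centriole assembly genes, Stil had the largest fold change between RGC-like and excitatory neuron-like cells. It had 40.5 and 50.8 CPM in RGC-like cells, 16.8 and 26.0 in IPC-like cells, and 0.41 and 1.11 in excitatory neuron-like cells, from 8 and 25 UMIs. The log2 fold change of RGC-like over excitatory neuron-like cells was 5.63 ± 0.44 (edgeR adjusted p = 3.38e-06). Cep152 had 46.4 and 40.8 CPM in RGC-like cells against 7.65 and 10.7 in excitatory neuron-like cells, and Cep135 had 46.4 and 44.7 against 9.39 and 9.94. Both were called, with log2 fold changes of 2.02 ± 0.32 (edgeR adjusted p = 0.000381) and 2.02 ± 0.20 (edgeR adjusted p = 1.8e-05). Cep63 varied little, with 36.8 and 41.0 CPM in RGC-like cells, 31.1 and 35.0 in IPC-like cells and 25.8 and 27.9 in excitatory neuron-like cells, and passed the test in none of the 3 class comparisons, though its difference between RGC-like and excitatory neuron-like cells did with only the compared sums fitted (edgeR adjusted p = 0.0282). Cenpj had 38.2 and 39.4 CPM in RGC-like cells, 51.7 and 52.2 in IPC-like cells and 26.5 and 27.3 in excitatory neuron-like cells, so the libraries of the 3 classes did not overlap. Its difference between IPC-like and excitatory neuron-like cells was called (log2 fold change 0.81 ± 0.20, edgeR adjusted p = 0.0113), a call that was lost with barcodes of at least 500 genes kept (edgeR adjusted p = 0.0637). The difference between RGC-like and excitatory neuron-like cells was not called (0.31 ± 0.20, edgeR adjusted p = 0.221), although it passed under 3 of 15 alternatives.

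Cdk5rap2 and Mcph1, like Cenpj and Cep63, held more than 3 UMIs in both libraries of every class of the fit. Cdk5rap2, the gamma-tubulin recruiter, had 142 and 163 CPM in RGC-like cells, against 115 and 129 in IPC-like cells, and 64.1 and 67.5 in excitatory neuron-like cells. Its log2 fold change between RGC-like and excitatory neuron-like cells was 1.0 ± 0.27 (edgeR adjusted p = 0.0101). Mcph1 had 83.1 and 95.5 CPM in RGC-like cells, 43.6 and 57.2 in IPC-like cells, and 40.6 and 42.0 in excitatory neuron-like cells. It was higher in RGC-like than in excitatory neuron-like cells (0.90 ± 0.19, edgeR adjusted p = 0.00234), and IPC-like cells did not differ from these neurons beyond error (0.15 ± 0.19, edgeR adjusted p = 0.581). GABAergic neuron-like cells stood second for Mcph1, with 78.0 and 83.0 CPM in the 2 libraries.

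In IPC-like cells, 7 of 10 genes were called higher than in excitatory neuron-like cells, Aspm, Stil, Nde1, Wdr62, Cep135, Cep152 and Cenpj, against 15.4% of all genes called higher and 17.1% lower. The median log2 fold change was 1.05 for the 10 genes and -0.01 for all genes. Cdk5rap2 did not pass (0.76 ± 0.27, edgeR adjusted p = 0.0537), but did under 10 of 15 alternatives, the library as a block among them (edgeR adjusted p = 0.0135). The call on Cep152 (0.99 ± 0.33, edgeR adjusted p = 0.0411) was lost under 5 of 15 alternatives, with adjusted p up to 0.141.

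Between the progenitor classes, 4 of 10 genes were called higher in RGC-like than in IPC-like cells and none lower, where 13.9% of all genes were called higher and 14.1% lower. These were Nde1 (log2 fold change 1.19 ± 0.18, edgeR adjusted p = 0.000819), Cep135 (0.92 ± 0.21, edgeR adjusted p = 0.00807), Mcph1 (0.74 ± 0.19, edgeR adjusted p = 0.0156) and Cep152 (1.03 ± 0.32, edgeR adjusted p = 0.0363). Stil (1.0 ± 0.34, edgeR adjusted p = 0.0514) and Aspm (0.83 ± 0.39, edgeR adjusted p = 0.145) were not called, and passed with the library as a block, with edgeR adjusted p = 0.00706 and 0.0438, which gave 6 genes called. Of 15 alternatives, 10 gave a call on Stil, 4 on Aspm and 4 on Wdr62, which was not called otherwise (1.08 ± 0.42, edgeR adjusted p = 0.0786), and the call on Cep152 was lost under 4 and that on Mcph1 under 2. Without the IPC-like cluster of 88 cells that had excitatory neuron markers raised, 2 genes were called, Nde1 and Cep135, and Cep152 (0.84, edgeR adjusted p = 0.0959) and Mcph1 (0.61, edgeR adjusted p = 0.0589) were not. Without the RGC-like cluster of 185 cells 7 genes were called, the added ones being Stil, Aspm and Wdr62 (edgeR adjusted p = 0.0165, 0.0306 and 0.0346). Cenpj had a value of the other sign (-0.50 ± 0.21, edgeR adjusted p = 0.0967), which was called under 4 alternatives. The median log2 fold change was 0.87 over the 10 genes and 0 over all genes.

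The progenitor classes differed in cell cycle state, which was called from S phase and G2/M phase gene lists that hold none of the 10 genes. In RGC-like cells 9.27% and 4.40% of cells were G1-like, 46.3% and 41.9% S-like and 44.4% and 53.7% G2/M-like in replicates 2 and 4. In IPC-like cells 68.1% and 61.4% were G1-like, 15.3% and 16.7% S-like and 16.6% and 22.0% G2/M-like, and of excitatory neuron-like cells 98.8% and 98.9% were G1-like. The calls depend on score borders, and 57 RGC-like and 30 IPC-like cells lay within 0.05 of one. G1-like cells here are those with both scores at or below 0, which takes in cells that have left the cycle. State shares thus differed together with class in the comparison of all RGC-like with all IPC-like cells, and the classes were compared at one state as well. S-like cells are those with an S score above 0 and not below the G2/M score, which may take in cells in G1. How closely the classes match in cycle position at one state was not tested.

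Inside the IPC-like class, 9 of 10 genes were called higher in S-like than in G1-like cells, against 7.40% of 13602 genes tested called higher and 4.12% lower. The median log2 fold change was 1.18 over the 10 genes and -0.04 over all genes. Stil rose from 1.46 and 0.84 CPM in G1-like to 46.2 and 49.2 in S-like cells (log2 fold change 5.35 ± 0.46, edgeR adjusted p = 7.64e-06). The G1-like values rested on 5 and 3 UMIs in 111 and 151 cells. Wdr62 rose from 0.58 and 1.40 to 8.75 and 21.0 CPM (3.92 ± 0.56, edgeR adjusted p = 0.00054), where the G1-like values rested on 2 and 5 UMIs, and 3 counts would be 0.88 and 0.84 CPM. All 7 of these UMIs lay in the cluster of 88 cells that had excitatory neuron markers raised, so without it the G1-like cells held 0 Wdr62 UMIs and the fitted fold change depends on the prior count. Cep152 rose from 12.3 and 10.3 to 52.5 and 36.4 CPM (1.94 ± 0.32, edgeR adjusted p = 0.00154). The remaining called changes were 3.04 for Aspm, 1.23 for Mcph1, 1.12 for Cep135, 1.11 for Cenpj, 1.06 for Nde1 and 0.83 for Cdk5rap2 on the log2 scale, with edgeR adjusted p between 0.00215 and 0.0240. Replicate 2 alone gave 2.01 for Aspm, 0.60 for Cep135 and 0.38 for Cdk5rap2, and replicate 4 alone 3.03, 1.59 and 1.23, while the call on Cep135 was lost with only the compared sums fitted (edgeR adjusted p = 0.0644). The states lay largely in different clusters: of 262 G1-like cells 174 were in the cluster of 222 cells, 87 in that of 88 cells with excitatory neuron markers and 1 in that of 99 cells led by Top2a, against 46, 0 and 20 of the 66 S-like cells. The excitatory neuron markers summed to 1804 and 2144 CPM in G1-like and 1245 and 1167 CPM in S-like cells of the 2 libraries. Without the cluster of 88 cells 8 of 10 genes were called, and Nde1 was not (0.69, edgeR adjusted p = 0.0515). Cep63 did not pass, with 29.5 and 34.4 CPM in G1-like and 40.0 and 32.8 in S-like cells. G1-like RGC-like cells were few, 19 and 15, and were not compared. They held 0 and 1 UMIs of Aspm and 1 and 0 of Stil, where 3 counts would be 5.90 and 9.65 CPM.

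From S-like to G2/M-like cells fewer of the genes were called. In RGC-like cells these were Aspm and Nde1, both higher in G2/M-like cells, against 1.91% of all genes called higher and 2.20% lower. Aspm had 22.8 and 16.2 CPM in S-like and 158 and 135 in G2/M-like cells (log2 fold change 2.88 ± 0.23, edgeR adjusted p = 1.44e-05). Nde1 had 62.3 and 51.8 CPM in S-like and 144 and 154 in G2/M-like cells (1.35 ± 0.14, edgeR adjusted p = 0.000101). The other 8 genes had log2 fold changes between -0.19 for Cep152 and 0.49 for Cdk5rap2, and the latter passed under 6 of 16 alternatives. The states were spread unequally over the clusters here too: the cluster of 185 cells held 144 of 238 S-like and 15 of 274 G2/M-like cells, the cluster of 137 cells 17 and 112, and the cluster of 224 cells 77 and 147. Both calls held without the cluster of 185 cells. The median over the 10 genes was 0.24 beside -0.01 over all genes.

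In IPC-like cells the same step gave 3 calls, all higher in G2/M-like cells, against 6.27% of all genes called higher and 5.43% lower. Aspm went from 6.25 and 16.4 CPM to 192 and 228 (log2 fold change 4.19 ± 0.31, edgeR adjusted p = 9.54e-06), the largest change of the 10 genes in this step. Of the 81 G2/M-like cells 78 were in the cluster led by Top2a. The excitatory neuron markers summed to 2962 and 2810 CPM in the G2/M-like cells, against 1245 and 1167 CPM in S-like cells. The IPC markers summed to 1205 and 1510 CPM in the G2/M-like cells, against 2141 and 2401 CPM in S-like cells. The part of these marker differences in the result was not tested. Nde1 went from 37.5 and 45.6 to 126 and 110 CPM (1.54 ± 0.18, edgeR adjusted p = 0.000199). Cdk5rap2 went from 121 and 170 to 209 and 245 CPM (0.69 ± 0.20, edgeR adjusted p = 0.039), a call that was lost with the cells near a state border left out (edgeR adjusted p = 0.0709) and with only the compared sums fitted (edgeR adjusted p = 0.0997). Mcph1 differed between libraries here, with 40.1 and 103 CPM in G2/M-like cells of replicates 2 and 4 from 33 and 140 UMIs, and 81.2 and 80.2 CPM in S-like cells. The median over the 10 genes was 0.34 and over all genes -0.01.

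Whether the S-to-G2/M change differed between RGC-like and IPC-like cells was tested as an interaction. Its IPC-like side takes in the change of marker sums between S-like and G2/M-like cells given above. None of the 10 genes was called, while 0.868% of all genes were called in either direction, 118 genes, or 194 with the library as a block and between 29 and 730 over all alternatives with a test. At an unadjusted p under 0.05 there were 1833 genes, 1 of them among the 10. That gene was Aspm, with a difference of -1.31 ± 0.42 on the log2 scale (edgeR adjusted p = 0.186). It was called under 2 of 16 alternatives, when all genes with at least 1 count were tested (edgeR adjusted p = 0.0255) and without the RGC-like cluster of 185 cells (-1.91, edgeR adjusted p = 0.0374), and its difference was -2.16 in replicate 2 alone and -0.83 in replicate 4 alone.

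**Figure D2:**
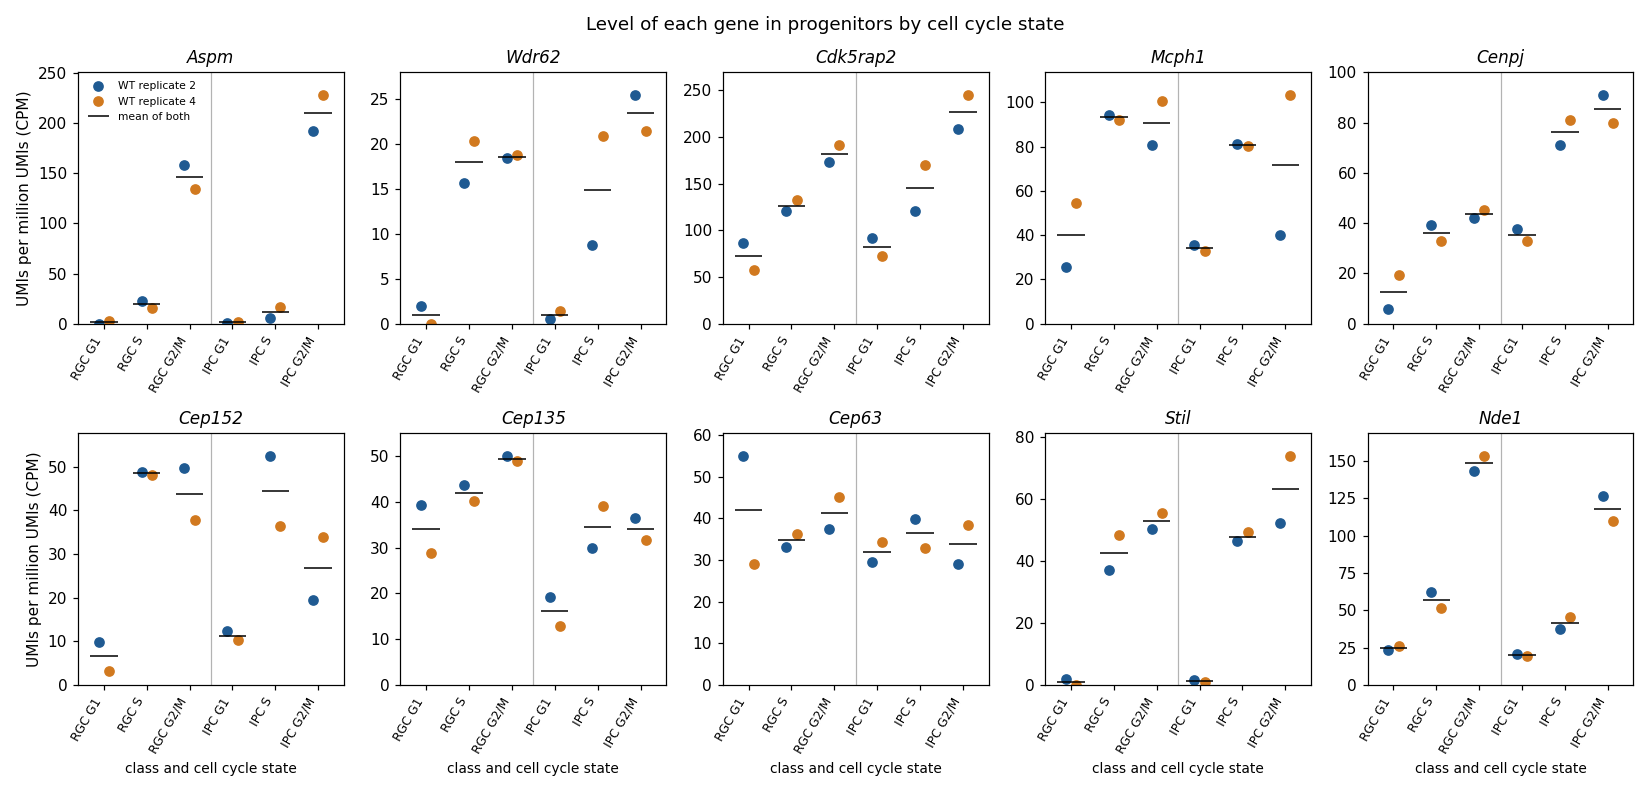
Level of each of the 10 genes in RGC-like cells (left of the grey line) and IPC-like cells (right) of the G1-like, S-like and G2/M-like states, in UMIs per 1000000 UMIs on a linear axis from 0 whose scale differs between panels. Points are the 2 WT libraries and bars their mean. Aspm and Nde1 step up in G2/M-like cells, Stil and Wdr62 are near 0 in G1-like cells and already raised in S-like cells, and Cep63 lies between 28.9 and 55.1 in every state.

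Ordering the S-like and G2/M-like RGC-like cells by the angle of their 2 phase scores gave a finer view, as a description only. The 512 cells were divided into 6 bins of 85 or 86 cells. The first bin held cells with an S score and a G2/M score near or below 0 (medians 0.351 and -0.095). The last bin held cells with a G2/M score and an S score near or below 0 (medians 0.527 and -0.050). The median S score was highest in bin 2, at 0.654, and the median G2/M score in bin 5, at 0.911. Aspm went from 9.42 and 4.93 CPM in the first bin to 213 and 190 CPM in bin 5, and Nde1 from 41.9 and 50.1 CPM to 175 and 199 CPM, also in bin 5. Stil peaked earlier, in bin 4 of both libraries at 71.5 and 79.6 CPM, and was back at 33.3 and 25.4 CPM in bin 6. Cep152 stood at 34.1 and 15.5 CPM in the last bin after 66.0 and 48.4 CPM in bin 4. The highest bin of Cep63 was 1.15 and 1.40 times its first. Libraries differed for Wdr62, Cdk5rap2, Mcph1, Cenpj, Cep152 and Cep135 in which bin was highest.

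**Figure D3:**
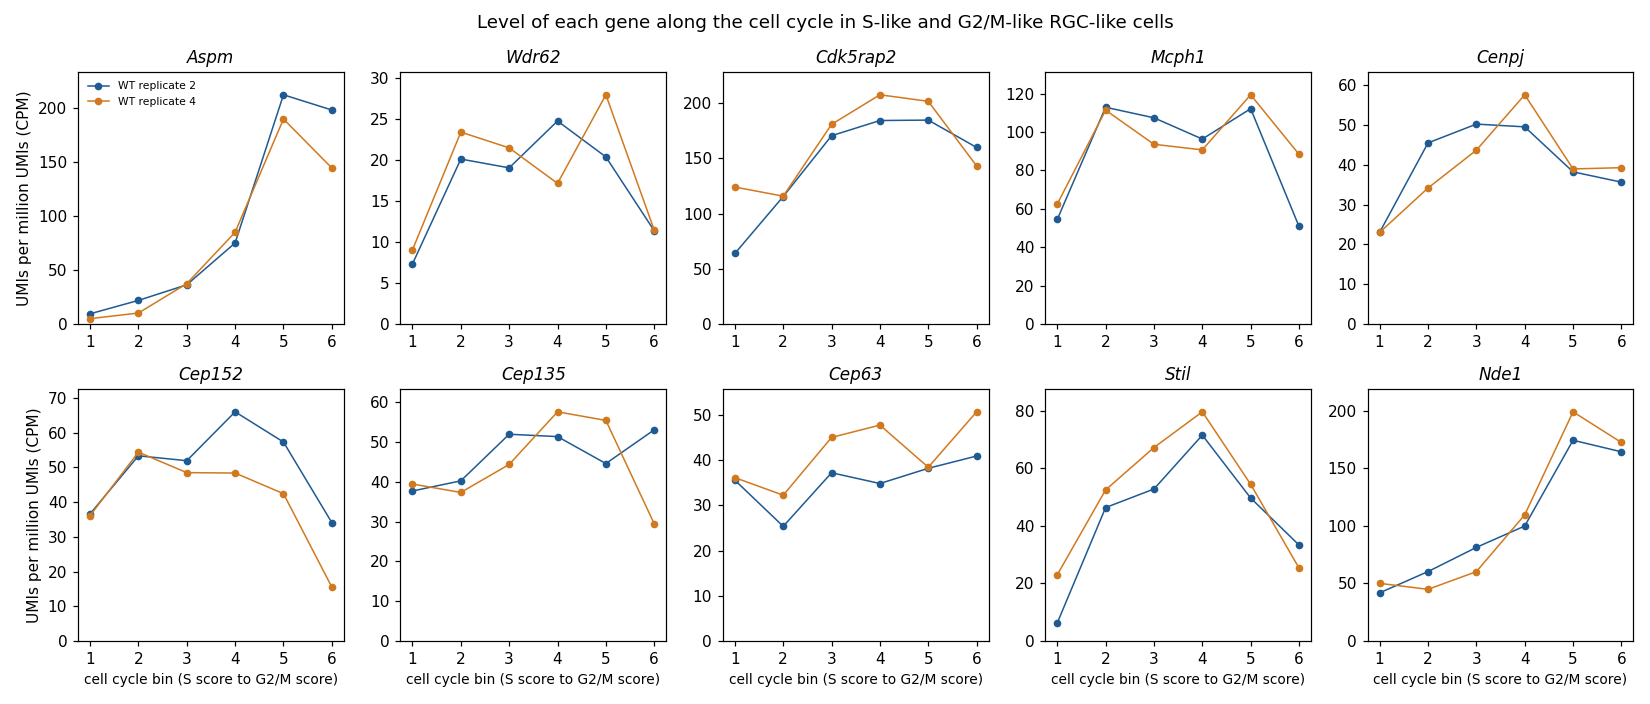
Level of each of the 10 genes in 6 bins of S-like and G2/M-like RGC-like cells ordered by the angle between S score and G2/M score, in UMIs per 1000000 UMIs on a linear axis from 0 whose scale differs between panels. Lines join the bins of each WT library. Aspm and Nde1 peak in bin 5 and Stil in bin 4 of both libraries.

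The clusters of progenitors, which were formed without the 10 genes, differed in the same genes. In an RGC-like cluster of 137 cells led by genes that include Cdc20, Cenpa and Ccnb1, regulators of mitosis, Aspm had 111 and 90.0 CPM and Nde1 148 and 170 CPM. Stil was at 8.6 and 9.1 CPM, Wdr62 at 8.6 and 4.5 CPM and Cep152 at 16.3 and 12.9 CPM in these cells. In another RGC-like cluster of 224 cells, led by genes that include Hist1h1b and Top2a, a replication-dependent histone and a topoisomerase, Aspm had 123 and 123 CPM and Nde1 115 and 122 CPM. There Stil had 67.8 and 73.3 CPM, Wdr62 23.9 and 27.0 CPM and Cep152 66.6 and 49.5 CPM. The remaining RGC-like cluster, of 185 cells, with Hbb-bs and Hbb-bt among its leading genes, had 11 and 8.01 CPM of Aspm and 44.7 and 50.8 CPM of Nde1. Stil had 14.9 and 34.1 CPM there, Wdr62 7.45 and 12.2 CPM and Cep152 30.7 and 40.7 CPM. These are descriptions of clusters, with no test.

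Compared at the same state, fewer of the 10 genes were called between RGC-like and IPC-like cells. Within S-like cells Cenpj alone was called, lower in RGC-like cells, where 7.76% of all genes were called higher in RGC-like cells and 6.69% lower. It had 39.4 and 33.0 CPM in RGC-like S-like cells against 71.2 and 81.1 in the IPC-like ones, with no overlap (log2 fold change -1.07 ± 0.19, edgeR adjusted p = 0.00235). Within G2/M-like cells Cenpj had 42.1 and 45.3 CPM in RGC-like cells against 91.1 and 79.8 in the IPC-like ones, again with no overlap (-1.03 ± 0.18, edgeR adjusted p = 0.00122). Both calls on Cenpj held under all 16 alternatives with a test. The G2/M-like IPC-like cells held more excitatory neuron than IPC marker UMIs, 2962 and 2810 against 1205 and 1510 CPM. In the S-like IPC-like cells these sums were 1245 and 1167 against 2141 and 2401 CPM. The part of this difference in the comparisons at one state was not tested.

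Aspm was also called lower in RGC-like than in IPC-like G2/M-like cells (-0.61 ± 0.20, edgeR adjusted p = 0.0445), with 158 and 135 against 192 and 228 CPM. That call was lost under 8 of 16 alternatives, with adjusted p up to 0.280, while the direction held in each. Replicate 2 alone gave -0.34 and replicate 4 alone -0.84. The G2/M-like IPC-like cells of this comparison are those with more excitatory neuron than IPC marker UMIs, as given above. Within S-like cells Aspm was not called (0.70 ± 0.37, edgeR adjusted p = 0.244), and the libraries alone gave 1.81 and -0.01. Without the RGC-like cluster of 185 cells, Aspm was called higher within S-like cells (1.37, edgeR adjusted p = 0.019) and not called within G2/M-like cells (-0.54, edgeR adjusted p = 0.0502). Within G2/M-like cells 12% of all genes were called higher in RGC-like cells and 11.3% lower. Nde1, Cep135, Mcph1 and Cep152, the 4 genes called higher in RGC-like cells over all states, had log2 fold changes of 0.45, 0.27, 0.22 and 0.16 within S-like cells and of 0.26, 0.47, 0.19 and 0.56 within G2/M-like cells, and none of these passed (edgeR adjusted p between 0.116 and 0.765). Within S-like cells replicates 2 and 4 alone gave 0.75 and 0.19 for Nde1, 0.56 and 0.04 for Cep135, 0.24 and 0.20 for Mcph1 and -0.083 and 0.40 for Cep152. Within G2/M-like cells they gave 0.12 and 0.40 for Nde1, 0.39 and 0.53 for Cep135, 0.94 and -0.12 for Mcph1 and 1.27 and 0.067 for Cep152. Stil had -0.15 and -0.36, against 1.0 over all cells. The median over the 10 genes was 0.19 within S-like and -0.08 within G2/M-like cells, beside 0.06 over all genes in each. The S-like and G2/M-like groups held 66 and 81 IPC-like cells, which limits what could be detected. A missed threshold does not show equal levels.

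**Figure D4:**
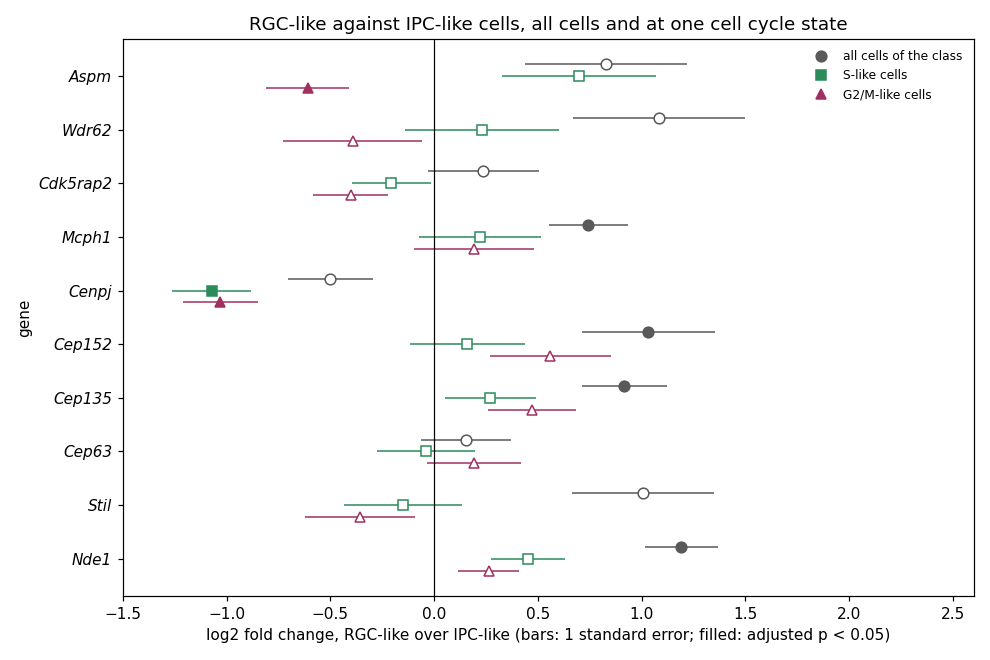
Log2 fold change of RGC-like over IPC-like cells for each of the 10 genes, with all cells of each class (circles), S-like cells only (squares) and G2/M-like cells only (triangles). Bars are 1 standard error, derived from the F statistic of the test, and filled symbols mark an adjusted p below 0.05. Filled circles to the right are Mcph1, Cep152, Cep135 and Nde1, and filled symbols to the left are Cenpj at both states and Aspm in G2/M-like cells.

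Shares of cells with at least 1 UMI were compared at a common depth. With each cell thinned to 5000 UMIs, an Aspm UMI was found in 20.6% of RGC-like cells, 8.89% of IPC-like cells and 0.32% of excitatory neuron-like cells (means of 2 libraries), and in 50.2%, 18.9% and 1.63% before thinning. In droplet data free RNA leaves some UMIs in cells that do not express a gene. Whether the UMIs of cycle-linked genes in excitatory neuron-like cells are free RNA or the cells' own was not tested. The median depth was 32221 and 26978 UMIs in RGC-like and 32866.5 and 24224 UMIs in excitatory neuron-like cells. For Nde1 the thinned shares were 33.7%, 12.6% and 1.98%, and for Stil 18.6%, 7.08% and 0.53%. For Cdk5rap2 they were 46.6%, 37.1% and 26.2%. The shares depend on the depth chosen, and at 10000 UMIs those of Aspm were 35.2%, 13.3% and 0.96%. Thinning to 5000 UMIs left out 23 RGC-like cells, 15 IPC-like cells and 69 excitatory neuron-like cells.

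Outside the excitatory lineage, GABAergic neuron-like cells varied between libraries in cycle-linked genes. Aspm had 9.47 and 39.5 CPM there, from 17 and 145 UMIs, and Stil 12.3 and 27.2 CPM. A GABAergic neuron-like cluster of 35 cells led by genes that include Top2a and Mki67, with 6 cells in replicate 2 and 29 in replicate 4, held Aspm at 95.5 and 227 CPM, Cdk5rap2 at 305 and 315 CPM and Cenpj at 143 and 139 CPM. In S-like GABAergic neuron-like cells, only 5 and 20 in number, Cenpj had 90.1 and 111 CPM, against 71.2 and 81.1 in S-like IPC-like cells. In G2/M-like ones, only 3 and 22 in number, it had 179 and 121 CPM, against 91.1 and 79.8 in IPC-like cells. These differences were not tested. In the G1-like GABAergic neuron-like cells, 76 and 204 in number, Aspm had 0 and 3 UMIs, where 3 counts would be 1.87 and 1.06 CPM. Meningeal fibroblast-like cells, with 19 and 34 cells, had Nde1 at 49.0 and 47.8 CPM and Aspm at 20.1 and 28.9 CPM. In the cluster of 135 cells with radial glia markers that stayed without a name, Aspm had 27.1 and 37.2 CPM, Stil 11.5 and 4.5 CPM and Nde1 39.3 and 42.7 CPM.

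Other genes linked to primary microcephaly in humans were counted in the same comparisons. Of 21 tested, 13 were called higher in RGC-like than in excitatory neuron-like cells and none lower, with a median log2 fold change of 1.23, against 23.9% of all genes called higher and 27.5% lower. The largest changes were 7.98 for Kif14, a mitotic kinesin, 6.81 for Bub1, a spindle checkpoint kinase, 6.48 for Knl1, a kinetochore scaffold, and 6.46 for Cit, a kinase of cytokinesis. Between RGC-like and IPC-like cells 9 of 21 were called higher and none lower, with a median of 0.73, against 13.9% and 14.1% of all genes. At matched states, and with 3 genes of the phase lists left out, 2 of 18 were called higher within S-like and 1 of 18 within G2/M-like cells, against 7.76% and 12% of all genes, and none lower. Mfsd2a, a lipid transporter, was the gene called at both, by 1.90 and 1.81 on the log2 scale.

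The remaining centrosome and spindle genes were more mixed. Of 25 further centriole assembly genes, 16 were called higher and 3 lower in RGC-like than in excitatory neuron-like cells (median 0.60), led by the duplication kinase Plk4 at 3.71 and by Kif24 at 3.19. Of 24 pericentriolar material and gamma-tubulin genes, 11 were called higher and 3 lower (median 0.31). The largest changes were 6.29 for Cep55, which acts in abscission at the end of cytokinesis, -3.12 for the gamma-tubulin gene Tubg2, -2.72 for Nin (ninein), a microtubule anchor, and 2.45 for Nedd1, which targets gamma-tubulin complexes. Nin was lower in RGC-like cells, with 33.5 ± 6.47 against 191 ± 3.96 CPM (SD, n = 2, edgeR adjusted p = 4.95e-06). Of 25 spindle pole, augmin and dynein genes, 15 were called higher and 5 lower (median 1.04), led by the kinesin Kif11 at 7.30 and the kinase Plk1 at 6.58. Over all genes 23.9% were called higher and 27.5% lower in this comparison, with a median of -0.07.

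In S-like against G1-like IPC-like cells, 12 of the 25 centriole genes were called higher and 1 lower, against 7.40% and 4.12% of all genes. Plk4 was among those higher, by 3.52 on the log2 scale. In G2/M-like against S-like cells, 3 of 25 were called higher among RGC-like cells, 4 of 25 among IPC-like cells, and none lower, against 1.91% and 6.27% of all genes called higher, with Cep89, a distal appendage gene, at 2.41 and 3.33. Between RGC-like and IPC-like cells at one state, 0 of the 25 were called higher and 2 lower within S-like cells, against 7.76% and 6.69% of all genes, and 2 higher and 4 lower within G2/M-like cells, against 12% and 11.3% of all genes. Poc5, a protein of the distal centriole, was lower in RGC-like cells at both, with log2 fold changes of -0.97 ± 0.27 and -0.80 ± 0.20 (edgeR adjusted p = 0.0292 and 0.0127). Nin was higher in RGC-like than in IPC-like cells at both states, by 1.30 and 2.87 on the log2 scale, and Akap9, a pericentriolar scaffold, lower in both, with -0.96 and -0.87.

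Of the 8 paralogs listed, 4 were tested, and none was called higher in progenitors than in neurons. Ndel1, the paralog of Nde1 and likewise a dynein regulator, had 28.6 ± 5.97 CPM in RGC-like and 37.2 ± 0.83 CPM in excitatory neuron-like cells (SD, n = 2) and was called lower in the former (-0.60 ± 0.18, edgeR adjusted p = 0.0156). Pde4dip (myomegalin), the paralog of Cdk5rap2, had 24.8 ± 2.57 against 58.7 ± 3.84 CPM (-1.46 ± 0.32, edgeR adjusted p = 0.00332). Mapkbp1, the paralog of Wdr62, and Tsga10, the paralog of Cep135, gave -0.26 ± 0.22 and -0.48 ± 0.28 and did not pass. None of the 4 was called between cell cycle states. The difference between a gene's change and that of its paralog was not tested.

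The genes whose level was most like each of the 10 were named by Pearson correlation of log2(CPM + 1) over 26 sums of cells, which share libraries and cells between them, so the values are a description. Closest to Aspm were Cdc20, Plk1 and Kif23 (r = 0.98, 0.98 and 0.98), and closest to Nde1 were Smc4, Cks1b and Hmgb2 (0.97, 0.97 and 0.96). Stil was most like Plk4, the kinase of its own step in centriole duplication, and Aurkb (r = 0.97 for both), and Wdr62 was most like Sass6, the cartwheel protein gene (0.93), and Ncaph (0.92). Cep152 was most like Cep128 (0.92), Cep135 like Suv39h1 (0.94), Cdk5rap2 like Anapc15 (0.94), Mcph1 like Topbp1 (0.88), Cenpj like Mphosph9 (0.88) and Cep63 like Zfp607b (0.84). The median correlation with all genes tested lay between -0.01 and 0.07 for the 10 genes. Of the 26 sums 14 were formed by cell cycle state. Cdc20, Kif23, Smc4, Cks1b, Hmgb2 and Aurkb are among the G2/M phase genes that called those states, so their likeness to cycle-linked genes is partly built in.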

How the data were processed

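The 2 WT single-cell libraries of dorsal telencephalon (10x 3′ chemistry) had been aligned and counted by the authors with Cell Ranger 7.0.0 on mm10, per the labels, and deposited as whole-number UMI counts per gene and barcode, not normalized. Annotation release and intron counting are not given in the sources used here. Barcodes needed 1000 detected genes or more and no more than 10% mitochondrial UMIs, and 29 doublets called by Scrublet were removed. Clusters (scanpy 1.11.5, Leiden resolution 1) left the 10 genes out of the variable genes and were named from marker lists (hemoglobin genes not used against a name): a marker was raised where its log2 ratio to the median cluster reached 1 and 25% or more of the cluster's cells held it. Cell cycle states came from 43 S phase and 54 G2/M phase genes. The members, marker lists and gene lists were chosen with earlier results of these data known.

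UMIs were summed per library and class (12 sums of 6 classes) or per library, class and state (14 sums), with at least 10 cells each. They were tested with edgeR 4.0.16 (quasi-likelihood, TMM, filterByExpr, R 4.3.3), p-values Benjamini-Hochberg adjusted over all genes tested and called below 0.05. The scripts were tested on simulated data. Sums of the same number come from the same library, so they are paired: their deviations correlated with a median r of 0.17 over 15 pairs of classes and 0.18 over 21 pairs of states, and fits with the library as a block are given where they change a call. Total UMIs per library set the depth, and counts cover sampling error only. Genes named beyond the 10 are up to 4 called genes per list, those of largest change among the ones with equal sign in each library, every tested paralog, and the 3 genes most correlated with each member. Leading genes of clusters were named after their values were seen. Alternatives were DESeq2 1.42.0 (size factors, Wald test), no count filter, the library block, each library alone, at least 500 genes, at most 5% mitochondrial UMIs, doublets kept, Leiden resolutions 0.5 and 2, a UMI split (one part for clustering, the other for testing), only the compared sums, and cells near a state border left out. Chosen after seeing the data were 4 more: the unnamed cluster with radial glia markers counted as RGC-like, the excitatory neuron-like cluster led by hemoglobin genes left out, the IPC-like cluster with most excitatory neuron markers raised left out, and the RGC-like cluster with hemoglobin genes among its leading genes left out. RefSeq gene spans and promoters are on GRCm38.p6.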

Additional observations from a re-analysis of the deposited data

How the results depend on the processing

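Over 15 alternatives to each class comparison and 16 to each state comparison, the 10 genes gave 1410 fold changes with a test, of which 1274 kept direction and side of the threshold. Of 557 values of the 36 called fold changes, 533 kept the call, 24 lost it and none changed sign. Another 45 values of uncalled fold changes gained a call. The library as a replicate block lost no call, added Aspm and Stil (RGC-like against IPC-like cells) and Cdk5rap2 (IPC-like against excitatory neuron-like cells), and moved the genes called for the difference between classes from 118 to 194. With each library alone there is no test, and no called fold change had the other sign. Of 300 levels (CPM in the 3 classes compared) under other cell filters or clusters, 87 moved by more than 1 SD of the 2 libraries and 3 by more than 1.5 times, all in excitatory neuron-like cells: Aspm 0.73 became 2.11 and Stil 0.76 became 1.41 with doublets kept, and Wdr62 1.37 became 0.87 at Leiden resolution 0.5. Of the shares of cells without thinning or at 10000 UMIs, 59 moved by more than 1 SD and 1 did not. The state comparisons rest on 66 S-like and 81 G2/M-like IPC-like cells, which limits their precision.

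Of the 10 genes, 4 were called between RGC-like and IPC-like cells, against 7 with all genes of at least 1 count tested 8 with only the compared sums fitted, 2 without the IPC-like cluster that had excitatory neuron markers raised and 7 without the RGC-like cluster that had hemoglobin genes among its leading genes. Without the latter, 2 were called within S-like cells, against 1. Within G2/M-like cells 2 were called, against 1 with at least 500 genes, at most 5% mitochondrial UMIs, doublets kept, Leiden resolution 0.5 or 2, the UMI split, the further radial glia cluster or without the RGC-like cluster just named. For the difference between classes 0 were called, against 1 with all genes of at least 1 count and 1 without that RGC-like cluster. Over all genes, calls from S-like to G2/M-like RGC-like cells went from 559 to 850 (DESeq2 Wald test), 1133 (all genes with at least 1 count) and 911 (compared sums only), and in IPC-like cells from 1591 to 967 (UMI split) and 860 (compared sums only). Calls from G1-like to S-like IPC-like cells went from 1567 to 2464 with doublets kept and to 1039 without the IPC-like cluster named. The 118 genes of the difference between classes became 415 (DESeq2 Wald test), 730 (all genes with at least 1 count), 179 (at most 5% mitochondrial UMIs), 63 (Leiden resolution 2), 29 (UMI split), 46 (compared sums only), 71 (cells near a border left out) and 220 (without the RGC-like cluster). The cause of these shifts was not tested.

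The 67 fold changes that changed sign were all uncalled, and are given on the log2 scale. In IPC-like against excitatory neuron-like cells, Mcph1 0.15 became -0.053, -0.13. In G2/M-like against S-like RGC-like cells, Wdr62 0.0080 became -0.0048, -0.0036, -0.013, -0.042, -0.48, and Mcph1 -0.067 became 0.061, 0.0064, 0.076, and Cenpj 0.25 became -0.084, and Stil 0.27 became -0.13. In G2/M-like against S-like IPC-like cells, Mcph1 -0.039 became 0.047, 0.084, 0.024, and Cep135 0.0024 became -0.016, -0.0024, -0.015, -0.035, -0.020, -0.0059, -0.014, and Cep63 -0.0049 became 0.0011, 0.0041, 0.25, 0.37, 0.18, 0.026, 0.13, 0.29, 0.12. In S-like against G1-like IPC-like cells, Cep63 0.16 became -0.36, -0.50, -0.29, -0.26, -0.11, -0.40, -0.026, -0.020. In RGC-like against IPC-like S-like cells, Cep152 0.16 became -0.12, -0.058, and Cep63 -0.038 became 0.32, 0.39, 0.33, 0.090, 0.19, 0.50, 0.12, and Cdk5rap2 -0.21 became 0.10, and Stil -0.15 became 0.30. In RGC-like against IPC-like G2/M-like cells, Stil -0.36 became 0.21. In the difference between classes of the S-to-G2/M change, Cdk5rap2 -0.20 became 0.0092, and Mcph1 -0.028 became 0.013, 0.16, 0.057, 0.0062, 0.045, and Cenpj 0.043 became -0.072, -0.27, and Cep63 0.23 became -0.044, -0.16, -0.057, -0.15, and Stil -0.21 became 0.057, 0.086, 0.41, 0.12.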
